A study of Saccharomyces cerevisiae with 8 samples.

Results

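LEU2, HIS3, URA3 and MET17 are the genes whose loss makes a yeast strain depend on leucine, histidine, uracil or methionine in the medium, and they serve as selectable markers on yeast plasmids and artificial chromosomes. These 4 genes, of 6002 protein-coding genes on the nuclear chromosomes, were followed at their native loci in 8 CAGE libraries of Saccharomyces cerevisiae. Each locus was the annotated gene with 500 bp on each side, read on both strands. Its peaks were set beside the peaks on the vector part of the synthetic contig, taken as positions above 100578. The loci held 34 peaks of the 25747 listed against the contig reference, and the vector held 55. The genes were chosen by their start peaks in these libraries, whose presence had been seen to differ between YAC and integrated strains at LEU2, so that contrast is described at the 4 genes and not tested.

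CAGE sequences the capped 5′ ends of RNA, and a peak marks a place in the reference where such ends aligned. All strains derived from BY4741, a widely used strain of mating type a that carries full deletions of LEU2, MET17 and URA3 and an internal deletion of HIS3. They bore synHPRT1, a synthetic human HPRT1 locus, or synHPRT1R, the same locus with its sequence reversed. The sequence sat on a yeast artificial chromosome, or YAC, in some strains and inside chromosome XI in others, which gave 4 groups of 2 libraries: synHPRT1 YAC, synHPRT1 integrated, synHPRT1R YAC and synHPRT1R integrated. YAC strains grew in SC-Leu, a synthetic medium without leucine that selects for the YAC, and integrated strains in the rich medium YPD. Growth was at 30 °C, from an OD of 0.1 to an OD near 0.6 over the 6 h before harvest. Location of the sequence and medium therefore cannot be told apart. Nothing in the labels says whether the 2 libraries of a group came from separate cultures or clones, so the p-values below refer to the spread among libraries and this spread may be technical.

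Leu2 is the dehydrogenase of the last pathway-specific step before leucine is made by transamination. Its gene, like others of branched-chain amino acid synthesis, is under the activator Leu3, which binds a palindrome of CCG and CGG and responds to a leucine precursor. His3 catalyses a dehydration step of histidine synthesis, and its promoter is a classic target of Gcn4, the activator of amino acid genes in starved cells. Ura3 decarboxylates orotidine monophosphate in pyrimidine synthesis, and Met17 joins sulfide to O-acetylhomoserine in methionine synthesis.

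The promoters of the genes that had a start peak are shown because the upstream edges of the peaks described below fall within them. Each runs from 250 bases before the start codon to 50 bases into the gene, from RefSeq's genome for build R64 (sacCer3), 5′ to 3′. Capitals mark the start codon and matches, on either strand, to a Leu3 site (CCGNNNNCGG), a Gcn4 site (TGACTC) or a TATA box (TATAAA).
LEU2, chrIII:91074-91373, plus strand: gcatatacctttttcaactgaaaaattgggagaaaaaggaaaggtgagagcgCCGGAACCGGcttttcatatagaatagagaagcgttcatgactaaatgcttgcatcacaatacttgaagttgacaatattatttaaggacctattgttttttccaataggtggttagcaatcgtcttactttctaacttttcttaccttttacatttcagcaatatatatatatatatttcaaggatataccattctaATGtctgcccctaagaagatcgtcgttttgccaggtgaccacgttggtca
HIS3, chrXV:721696-721995, plus strand: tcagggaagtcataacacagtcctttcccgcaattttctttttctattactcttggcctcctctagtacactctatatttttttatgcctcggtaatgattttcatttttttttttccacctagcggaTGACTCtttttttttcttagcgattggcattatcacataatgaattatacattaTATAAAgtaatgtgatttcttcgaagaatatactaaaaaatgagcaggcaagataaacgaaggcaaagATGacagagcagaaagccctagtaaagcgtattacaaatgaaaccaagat
The LEU2 promoter held a Leu3 site from 198 to 189 bases before the start codon. Of the 6001 promoters of this length in the genome, 1.45% held such a match. The HIS3 promoter held a Gcn4 site 122 to 117 bases before the start codon, a motif found in 7.98% of promoters. It also held a TATA box 68 to 63 bases before it, found in 45.2%. No match to these letters was found in the same windows of URA3 and MET17.

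A start peak was a peak on the gene's strand that touched the stretch between 300 bp before and 100 bp after the first base of the start codon. Its level is given as the tags at the peak's summit divided by the genome-wide background of the list, so that a level of 1 is background. LEU2 (YCL018W, chromosome III, 91324 to 92418, plus strand) had a start peak in all 4 YAC libraries and in 0 of 4 integrated libraries. Over all genes, 0.1% had this pattern, and 0.0833% the opposite one. With the contig reference, in which the synthetic sequence and its vector stood as a contig of their own, the LEU2 summit held 1436 and 1147 tags in synHPRT1 YAC replicates 1 and 2. It held 1587 and 694 tags in synHPRT1R YAC replicates 1 and 2. These are levels of 30.0, 26.6, 30.1 and 16.9. Since the labelled strain lacks the gene, these positions say where tags aligned and not that RNA began at the native locus. Under the contig reference all 4 peaks began at position 91293, which is 31 bp upstream of the start codon. Their summits lay between 91392 and 91418, 68 to 94 bp into the gene. Plus-strand start peaks of the genome as a whole began at a median of 54 bp upstream (quartiles 33 and 86), with a median summit 60 bp into the gene. Among genes with a start peak in the same library, LEU2 stood at percentiles 83.2, 81.2, 83.4 and 74.8. The second synHPRT1R YAC library was the lowest, and the other 3 lay close together. In the 4 integrated libraries no peak of either strand was listed in the LEU2 window, so none passed the authors' threshold. BY4741 carries a full deletion of LEU2, and these strains are not labelled as carrying the vector. The absence is therefore not a reading of an intact gene.

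**Figure D1:**
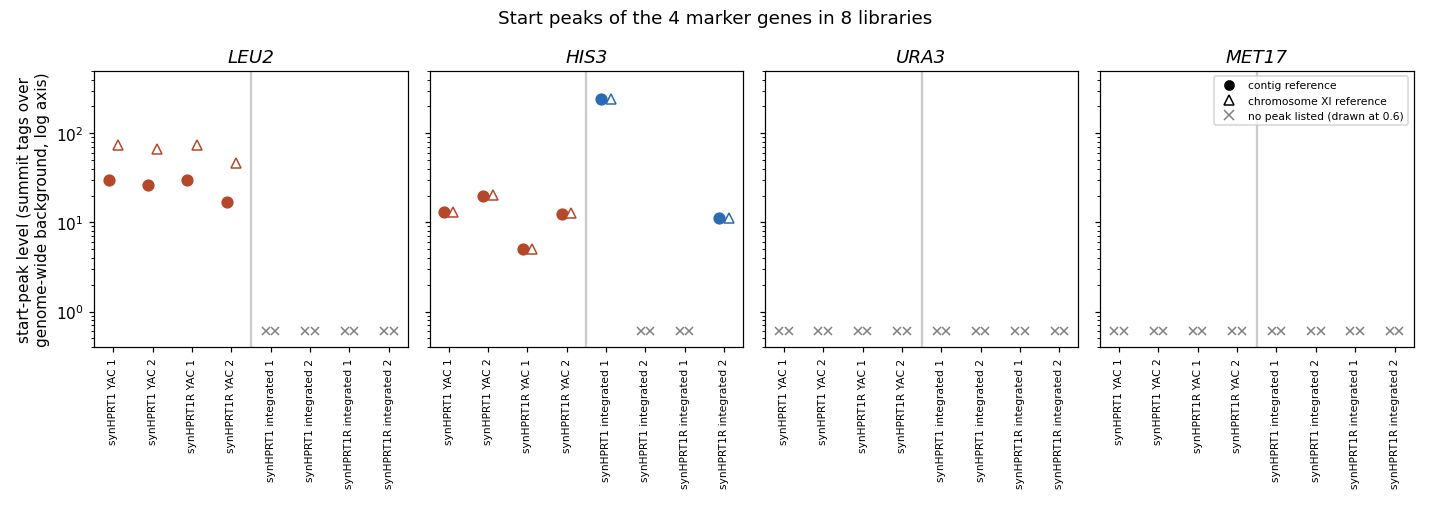
Start-peak level (log axis) of the 4 marker genes in each of the 8 libraries, YAC strains in red and integrated strains in blue. Filled circles show the contig reference, open triangles the chromosome XI reference, and crosses libraries with no listed peak. LEU2 has values in the 4 YAC libraries alone and is higher under the chromosome XI reference, HIS3 has 6 values with 1 of 239.7, and URA3 and MET17 have none.

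The authors listed peaks against a second reference, in which the synthetic sequence stood inside chromosome XI and the vector was absent. There the LEU2 summit held 3561, 2836, 3835 and 1873 tags in the same order of libraries, or levels of 74.6, 65.8, 73.0 and 45.8. LEU2 was thus higher under this reference in all 4 YAC libraries, by 2.48, 2.47, 2.42 and 2.70 times in tags. As a log2 ratio of levels the change was 1.33 ± 0.07 (SD, n = 4; exact two-sided sign-flip test, p = 0.125, the smallest p that 4 libraries allow). With the deposited fold enrichment in place of the level the ratio was 0.83. The percentile of LEU2 among start peaks rose to between 88.8 and 92.4. The upstream edges no longer coincided and lay 44, 77, 41 and 107 bp before the start codon, in the same order of libraries. The integrated libraries had no LEU2 peak under this reference either.

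The tags that LEU2 lacked under the contig reference were matched in number by 1 peak on the vector. The difference between the references was 2125, 1689, 2248 and 1179 tags. A forward-strand vector peak at contig positions 101134 to 101435 held 2133, 1692, 2248 and 1181 tags at its summit. Locus and vector summits therefore summed to the chromosome XI value with an excess of 8, 3, 0 and 2 tags, at most 0.225%. No other vector peak came as near in any of the 4 libraries: the next nearest missed the difference by 22.8%, 17.9%, 13.4% and 3.05% of it. Taking both summits together, the locus received 40.2% of the tags in synHPRT1 YAC replicate 1 (95% exact Clopper-Pearson interval 38.6 to 41.9) and 40.4% in replicate 2 (38.6 to 42.2). It received 41.4% in synHPRT1R YAC replicate 1 (39.8 to 43.0) and 37.0% in replicate 2 (34.8 to 39.2). The share averaged 39.8% ± 1.898 (SD, n = 4), and the second synHPRT1R library was again the lowest. The vector's sequence was not used here, so whether it holds LEU2 was not read from sequence.

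**Figure D2:**
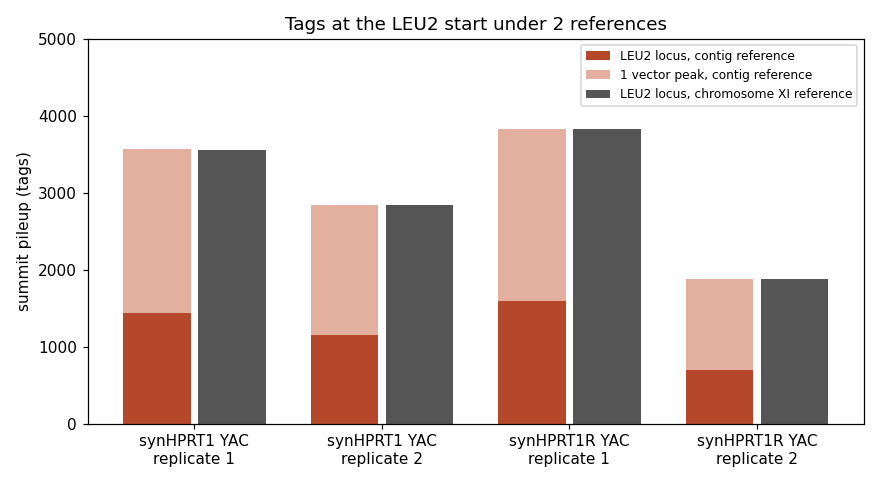
Summit pileup in tags for the 4 YAC libraries. The left bar of each pair stacks the LEU2 locus and 1 vector peak under the contig reference, and the right bar is the LEU2 locus under the chromosome XI reference. The bars of each pair differ by 0 to 8 tags.

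The change between references was then counted at every native locus. Native peaks of a library were merged into clusters across both references, and the highest pileup was compared. In the YAC libraries 12118 clusters were listed under both, and 12111 had equal pileup. Just 6 clusters gained more than 5 tags without the vector, 0.0495% of those compared, and all 6 lay in the LEU2 window. In the integrated libraries 0 of 12779 clusters gained tags. A single cluster in the 8 libraries lost more than 5 tags, on chromosome XI in synHPRT1 YAC replicate 2, from 107 to 64. Of the 6 LEU2 clusters, 4 were the start peaks. The other 2 lay in the body of the gene in synHPRT1 YAC replicate 1, where they rose from 139 to 281 and from 311 to 631 tags. The gene body of LEU2 carried such weak peaks in 2 YAC libraries under the contig reference. A minus-strand peak of 172 tags inside LEU2, at 91784 to 91983, was listed in synHPRT1 YAC replicate 1 under the chromosome XI reference alone. The same library also had 2 weak clusters listed under the contig reference alone, of 95 tags on chromosome V and 85 tags on chromosome XII.

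**Figure D3:**
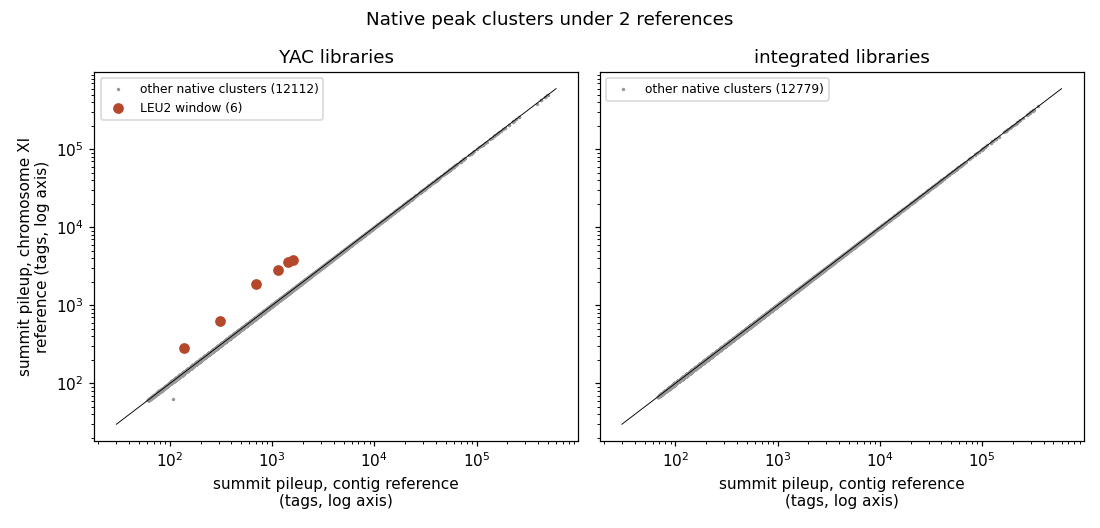
Summit pileup of native peak clusters under the contig reference (horizontal, log axis) and the chromosome XI reference (vertical, log axis), YAC libraries at left and integrated libraries at right. Grey dots are clusters outside the LEU2 window, red dots the 6 clusters inside it, and the line marks equality. The red dots lie above the line and 12111 of the other YAC clusters lie on it.

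HIS3 was the comparison within the same libraries, since its peak was listed under both references too. Its summit held the same number of tags under both in all 6 libraries that had a peak. The log2 ratio of HIS3 levels was 0.0022 ± 0.0017 (SD, n = 6; exact two-sided sign-flip test, p = 0.125), which comes from the list background alone. The log2 ratio of HIS3 summits without that division was 0.

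Tag number had singled out LEU2 among the marker loci, but shape did not single out any of them. A twin was a peak of the same library whose width and distance from 5′ edge to summit both agreed within 20 bp. Twins could lie on the same or on opposite strands. Of the 54 vector peaks in YAC libraries, 23 (42.6%) had a twin among the peaks of the marker windows, and 14 of the 20 window peaks (70%) had a twin on the vector. Of all 12134 native peaks in these libraries, 79.1% had a twin on the vector by the same rule, between 74.3% and 86.1% by library. For LEU2 itself the count was 3 of 7 peaks. Between 41.5% and 44.8% of native peaks had the smallest width in the lists, 200 bp, as did 20 vector peaks. The LEU2 start peak and the vector peak of matching tag number were 224 and 230 bp wide in synHPRT1 YAC replicate 1 and 251 and 262 bp in replicate 2. They were 520 and 259 bp wide in synHPRT1R YAC replicate 1 and 275 and 264 bp in replicate 2. Their summit offsets differed by 10 to 52 bp. The vector peak began 9881, 9881, 9884 and 9841 bp further along its contig than the LEU2 peak began on chromosome III. The distances between their summits were 9846, 9871, 9838 and 9893 bp, and those between their ends 9887, 9892, 9623 and 9830 bp.

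The vector carried 15 and 14 peaks in the synHPRT1 YAC libraries and 15 and 10 in the synHPRT1R YAC libraries. These fell into 25 stranded regions, of which 7 had a peak in all 4 libraries and 14 in 1 library. The forward region at 101134 to 101435, the one that matched LEU2 in tags, had levels of 44.5 and 39.2 in the synHPRT1 YAC libraries and 42.7 and 28.8 in the synHPRT1R YAC libraries. Other strong forward regions were at 106666 to 107131, with a median level of 50.5, and at 111379 to 111599, with 53.6. On the reverse strand the region at 110465 to 111261 had a median level of 42.2, and the other 2 shared regions stayed at 8.93 and 8.77. These regions are given by position alone, since no annotation of the vector was used. In the integrated strains 1 vector peak was listed, in synHPRT1 integrated replicate 2, on the reverse strand at 108944 to 109143 with a level of 1.86.

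**Figure D4:**
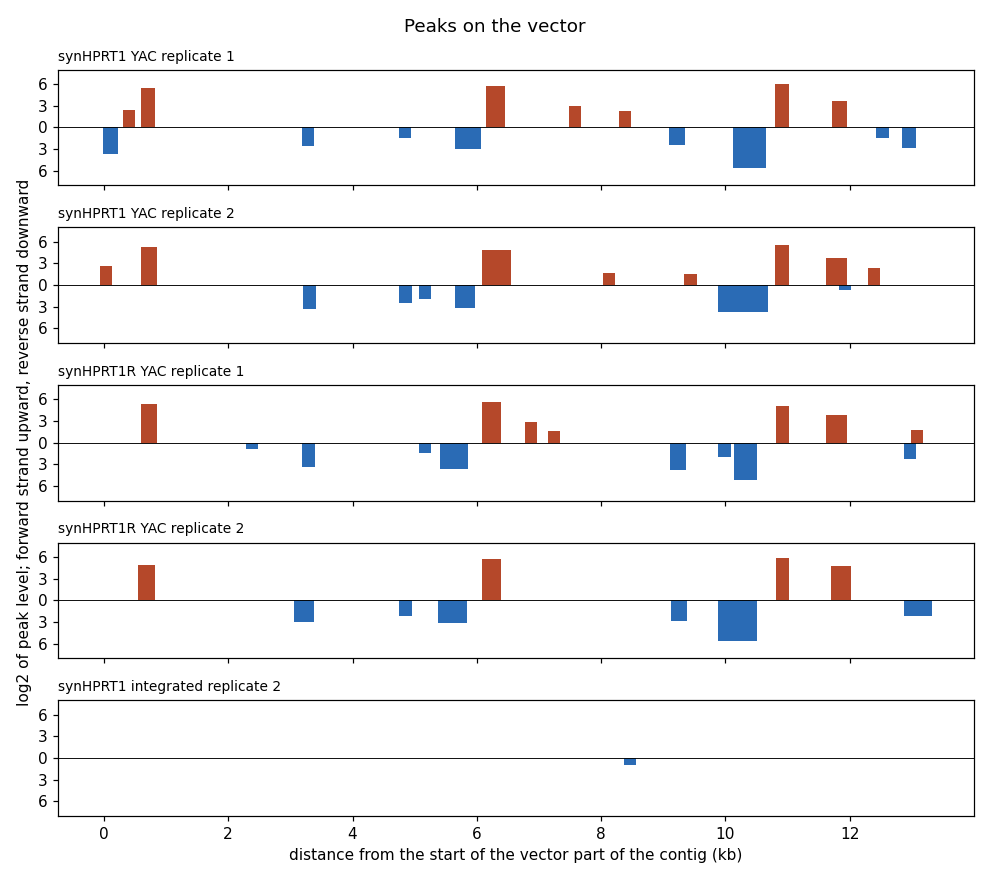
Peaks on the vector part of the contig, by distance from its start in kb, in the 4 YAC libraries and in the 1 integrated library that had a vector peak. Bar height is the log2 of the peak's level, forward strand upward in red and reverse strand downward in blue. The forward peak that matched LEU2 in tags, within the first kb, recurs in all 4 YAC libraries with levels of 28.8 to 44.5. A weaker forward peak lies to its left in each synHPRT1 YAC library.

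Forward and reversed sequences on the YAC did not differ detectably at LEU2. The mean log2 level in synHPRT1R YAC libraries was lower than that in synHPRT1 YAC libraries by a difference of -0.32 (exact two-sided permutation test, 2 against 2 libraries, p = 1), and this design cannot give a p below 0.333. Under the chromosome XI reference the difference was -0.28 (exact permutation p = 0.667). Without synHPRT1R YAC replicate 2 the difference turned to 0.09, and without replicate 1 it was -0.74.

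For HIS3 (YOR202W, chromosome XV, 721946 to 722608, plus strand) start peaks were listed in the 4 YAC libraries and in 2 of the integrated ones, a pattern shared by 1.05% of genes. Its summit held 628 and 864 tags in the synHPRT1 YAC libraries and 267 and 514 in the synHPRT1R YAC libraries, or levels of 13.1, 20.0, 5.07 and 12.5. In synHPRT1 integrated replicate 1 it held 11978 tags, a level of 239.7. In synHPRT1R integrated replicate 2 it held 518 tags, a level of 11.1, and the other replicate of each integrated group had no listed peak. The YAC range thus overlaps the lower integrated value and lies far below the higher one. The 6 peaks began between 721920 and 721934, just upstream of the start codon. HIS3 stood at percentile 96.8 of start peaks in synHPRT1 integrated replicate 1 and between 37.1 and 76.9 in the other 5 libraries.

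The HIS3 value in synHPRT1 integrated replicate 1 was 11.98 times the next highest. Of 3317 genes with a start peak in at least 2 libraries, HIS3 ranked 1 by this ratio, against a median ratio of 1.23. The ratio reached 10 for 2 genes, HIS3 in that library and IRC21 in synHPRT1R integrated replicate 2. The same library listed a minus-strand peak inside HIS3 at 722326 to 722525, with a level of 3.29, which no other library had. The genes on either side had far lower values in it. DED1, which encodes an RNA helicase of translation initiation and starts just downstream, had a level of 9.55 there and 7.46 to 19.5 over the 8 libraries. MRM1, a mitochondrial ribosomal RNA methyltransferase gene read in the opposite direction upstream, had a level of 2.65 there and 1.501 to 2.65 in the 5 libraries with a peak. The part that strain, clone or library played in the high HIS3 value was not tested.

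URA3 (YEL021W, chromosome V, 116167 to 116970), fully deleted in BY4741, had a start peak in 0 of 8 libraries. Of all genes 33.8% had none either, but for URA3 this is not a reading of an intact gene. The sole peaks in its window, in 3 YAC and 4 integrated libraries, lay at the start of the gene downstream, TIM9, which encodes a chaperone of mitochondrial import. TIM9 had levels of 13.3 in synHPRT1 YAC replicate 1, 10.5 and 4.64 in the synHPRT1R YAC libraries, 14.7 and 7.36 in the synHPRT1 integrated libraries and 2.76 and 12.8 in the synHPRT1R integrated libraries. It had no listed peak in synHPRT1 YAC replicate 2, and the groups overlap. GEA2, upstream of URA3, had a start peak in 0 of 8 libraries.

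MET17 (YLR303W, chromosome XII, 732542 to 733876), also fully deleted in BY4741, had no peak in its window in any library, on either strand, under either reference. Of the genes around it, HRI1 showed a start peak in 3 YAC libraries and all 4 integrated ones, at levels of 1.51 to 12.8. ACO1, the aconitase gene, had one in 4 YAC and 3 integrated libraries at levels of 1.72 to 5.72. YLR302C, which overlaps the start of MET17 on the other strand, had none. Around LEU2, the neighbour NFS1, a cysteine desulfurase gene, showed a start peak in 3 libraries of each context, at levels of 3.76 to 6.16.

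By presence over the libraries, 5 other genes had the pattern of LEU2. With the contig reference, the nearest in median level on the log2 scale to LEU2, at 28.3, were ARG1 and SNZ1. ARG1, of arginine synthesis, had 37.4, and SNZ1, of vitamin B6 synthesis, had 58.0. This order rests on the reference: under the chromosome XI reference the LEU2 median was 69.4, nearer to the 58.0 of SNZ1 than to the 37.4 of ARG1. SNO1, which shares its promoter region with SNZ1, PHM7 and CFD1 had medians of 4.90, 4.16 and 2.99. Fisher's exact test of start peaks with Benjamini-Hochberg adjustment called 0 of 6002 genes (11 at an unadjusted p under 0.05; limma on levels called 38 of 1239). The smallest p of 4 against 4 libraries is 0.0286, which does not survive adjustment. The pattern of HIS3 was shared by 10 genes, nearest in median level being GPA2 at 16.03, RMI1 at 6.32 and MET30 at 4.96, against 12.8 for HIS3. Likeness here is presence in the same 4 or 6 libraries and then nearness of median level on the log2 scale.

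The genes of the same 4 pathways were read in the same libraries. Of 15 genes of leucine and branched-chain synthesis and uptake other than LEU2, 10.25 ± 1.26 (SD, n = 4) had a start peak in YAC libraries and 8.5 ± 1.91 in integrated libraries. The same counts were 3.75 ± 1.5 and 3.25 ± 0.5 of 7 histidine genes. For 16 pyrimidine genes they were 9.25 ± 1.26 and 8.25 ± 1.26, and for 30 methionine and cysteine genes 15.75 ± 0.957 and 13.5 ± 2.38. Over all genes they were 2426 ± 25.03 and 2498.5 ± 128. The counts of each of these 4 lists overlap between contexts. At least 3 libraries of one context against at most 1 of the other was met in the YAC direction by 2.25% of all genes. Among the lists it was met by HIS4, a histidine gene of several steps, by the uridine kinase gene URK1, and by MET13 and SAM2 of methyl group metabolism. In the integrated direction it was met by 2.52% of all genes and, among the lists, by the histidinol phosphatase gene HIS2 and the aspartate kinase gene HOM3.

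Levels gave a finer view for the 1239 genes with a start peak in all 8 libraries. YAC and integrated libraries were compared by limma on log2 level, with the synthetic sequence as a covariate and Benjamini-Hochberg adjustment over the 1239 genes, a test added after the data had been seen. In all, 21 genes (1.69%) were higher and 17 (1.37%) lower in YAC libraries. The median difference over all 1239 genes was -0.10. Of 5 leucine and branched-chain genes in the test, 3 were higher in YAC libraries and none lower, with a median difference of 0.98. Of 5 methionine and cysteine genes, 2 were higher and none lower, with a median of 0.65. Of 4 pyrimidine genes none was called, with a median of -0.14, and no histidine gene had a peak in all 8 libraries.

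BAT1, the mitochondrial branched-chain aminotransferase that carries out the last step of leucine synthesis, had levels of 162 and 225 in the synHPRT1 YAC libraries and 172 and 145 in the synHPRT1R YAC libraries. In the integrated libraries it had 61.4 and 42.6 with synHPRT1 and 61.6 and 61.7 with synHPRT1R. The groups did not overlap, and BAT1 was higher in YAC libraries by 1.63 ± 0.20 (SE, log2; limma adjusted p = 0.000222). ILV3, the dihydroxyacid dehydratase, had levels of 90.8, 101.3, 68.4 and 82.0 in the YAC libraries in the same order, against 23.2, 17.7, 28.1 and 25.7 in the integrated ones. It was higher in YAC libraries by 1.86 ± 0.24 (limma adjusted p = 0.000276). LEU4, the main isopropylmalate synthase and the first committed step towards leucine, had levels of 68.0, 73.6, 60.0 and 77.2 against 34.5, 42.9, 31.0 and 32.9. It was higher by 0.98 ± 0.21 (limma adjusted p = 0.0188), without overlap. BAT2, the cytosolic aminotransferase, stood the other way, at 29.1 to 51.0 in YAC and 57.8 to 78.9 in integrated libraries, with a difference of -0.83 ± 0.23 that did not pass (limma adjusted p = 0.0662). Without synHPRT1R YAC replicate 1 that difference was -1.02 and passed (limma adjusted p = 0.0248). The calls of BAT1 and ILV3 held with each library left out in turn, with adjusted p up to 0.00272 and 0.00314. That of LEU4 held in 3 of 8 such fits, with p between 0.0218 and 0.0771.

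In the methionine list, HOM2, aspartate semialdehyde dehydrogenase, had levels of 44.2 to 71.5 in YAC and 18.6 to 37.4 in integrated libraries, a difference of 1.202 ± 0.28 (limma adjusted p = 0.0303). MET28, a cofactor of transcription of sulfur genes, had levels of 20.3 to 57.1 against 10.9 to 17.9, a difference of 1.47 ± 0.35 (adjusted p = 0.0340). For both genes the groups did not overlap. HOM2 kept its call in 3 and MET28 in 2 of the 8 fits with a library left out, with p up to 0.115 and 0.131. SAM1, an S-adenosylmethionine synthetase gene, had levels of 54.1 to 79.0 against 30.5 to 51.0, a difference of 0.65 that did not pass (limma adjusted p = 0.162). CYS3 and CYS4, of the pathway from homocysteine to cysteine, had differences of the other sign, -0.40 and -0.83, that did not pass either (limma adjusted p = 0.615 and 0.286). MET6, methionine synthase, was not in the test because 1 integrated library had no peak. Its levels were 35.1 to 50.4 in 4 YAC libraries and 1.39 to 5.55 in the 3 integrated libraries with a peak. In the pyrimidine list the strongest genes were FCY1, cytosine deaminase, at levels of 2183 to 2409 in YAC and 2302 to 2772 in integrated libraries, and FUR1, uracil phosphoribosyltransferase, at 386 to 439 and 312 to 465. URH1, a uridine nucleosidase gene, followed at 8.49 to 22.7 and 6.65 to 24.7. The ranges of all 3 overlap.

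**Figure D5:**
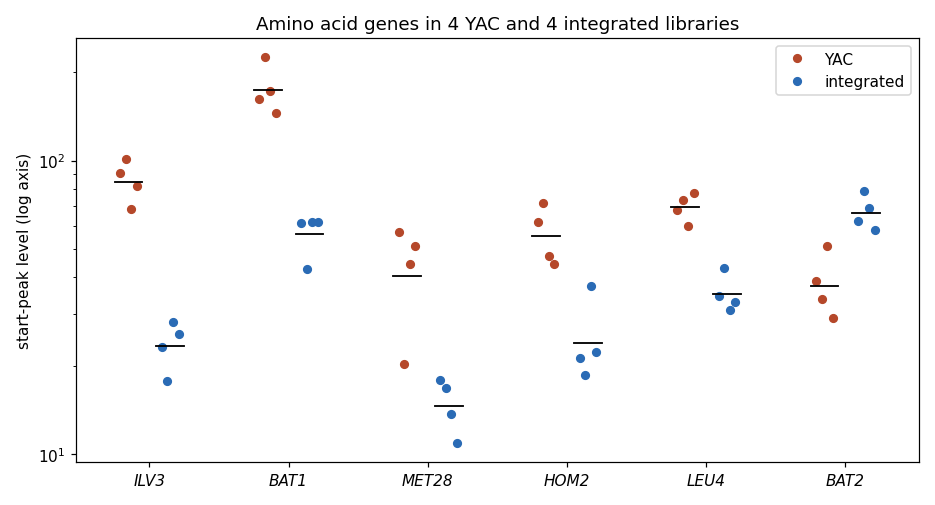
Start-peak level (log axis) of 6 amino acid genes in each of 4 YAC (red) and 4 integrated (blue) libraries, with the geometric mean as a bar. ILV3, BAT1, MET28, HOM2 and LEU4 are higher in every YAC library than in any integrated library, and BAT2 is lower in every YAC library.

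The promoters of the 3 called leucine genes are shown for comparison with that of LEU2, with which BAT1 alone shares one of the motifs searched. The windows, source and capitals are as for LEU2 and HIS3.
BAT1, chrVIII:517282-517581, plus strand: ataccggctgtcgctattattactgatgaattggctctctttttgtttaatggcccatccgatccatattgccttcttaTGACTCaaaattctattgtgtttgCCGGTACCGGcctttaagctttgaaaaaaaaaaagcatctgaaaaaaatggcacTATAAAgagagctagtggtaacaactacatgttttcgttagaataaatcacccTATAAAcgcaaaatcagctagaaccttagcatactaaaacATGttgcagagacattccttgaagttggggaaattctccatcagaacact
ILV3, chrX:466159-466458, minus strand: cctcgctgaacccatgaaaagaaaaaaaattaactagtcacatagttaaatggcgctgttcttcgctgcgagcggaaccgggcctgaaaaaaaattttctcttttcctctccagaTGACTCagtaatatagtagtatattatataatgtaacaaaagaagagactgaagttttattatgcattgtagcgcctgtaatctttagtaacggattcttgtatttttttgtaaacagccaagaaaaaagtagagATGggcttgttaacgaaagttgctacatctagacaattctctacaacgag
LEU4, chrXIV:426705-427004, minus strand: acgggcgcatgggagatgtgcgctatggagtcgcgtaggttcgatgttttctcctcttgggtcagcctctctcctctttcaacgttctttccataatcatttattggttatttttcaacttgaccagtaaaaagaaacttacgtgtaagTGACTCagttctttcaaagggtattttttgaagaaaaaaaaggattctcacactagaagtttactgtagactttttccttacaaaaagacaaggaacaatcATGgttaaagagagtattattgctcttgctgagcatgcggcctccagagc
BAT1 held a Leu3 site 147 to 138 bases before its start codon, a Gcn4 site at 171 to 166 and a pair of TATA boxes. ILV3 and LEU4 held a Gcn4 site, at 135 to 130 and at 101 to 96 bases before the start codon, and no match to the Leu3 letters. LEU2 held the Leu3 site and no match to the Gcn4 letters. Among the 21 genes higher in YAC libraries, 8 (38.1%) held TGACTC on either strand: ARG4, BAT1, GCV3, HOM2, IDP1, ILV3, LEU4 and MET28. Among the 17 lower genes 0 did, and among all 1239 genes in the test 10.3% did. The TATA letters were held by 76.2% of the higher genes, 64.7% of the lower genes and 47.5% of all genes tested. For the Leu3 letters the shares were 4.76%, 0% and 1.37%. These shares are descriptions of letters in a window of 300 bases.

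Of 8 genes listed as under Leu3, which share members with the leucine list, 3 were in the level test, and BAT1 and LEU4 were called. The third, GDH1, a glutamate dehydrogenase gene, had levels of 29.4 to 42.1 in YAC and 27.0 to 34.8 in integrated libraries, which overlap. Start peaks of the 8 were listed in 5.5 ± 0.577 genes of a YAC library and 5 ± 1.15 of an integrated one. A further list of 8 genes held other markers of yeast vectors and strains and also GCN4, the gene of the activator. Of these, 5.75 ± 0.5 had a start peak in YAC libraries and 5 ± 0.816 in integrated libraries. ADE1, LYP1 and ADE2 had one in all libraries, and LYS2 and GCN4 in none. ADE1 had levels of 14.3 to 37.3 in YAC and 23.7 to 35.2 in integrated libraries, and LYP1 of 1.68 to 10.1 and 3.64 to 8.56. ADE2, of purine synthesis, had levels of 4.11 to 11.8 in YAC and 11.76 to 16.3 in integrated libraries, a difference that was not called (limma adjusted p = 0.188). Of 7 a-specific genes, MFA1, MFA2, STE6 and AGA2 had a start peak in all 8 libraries. ASG7 had one in 2 YAC and 4 integrated libraries, STE2 in 0 YAC and 2 integrated libraries, and BAR1 in none. Of 4 alpha-specific genes, the pheromone gene MF(ALPHA)1 showed a peak in 1 library, and the other 3 showed none.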

How the data were processed

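Processed files were peak lists from CAGE in 8 libraries (4 groups of 2), with 4 lists per library, 1 for each strand and each of 2 references, 32 in all. The submitters' processing notes name MACS2 2.1.0, deepTools 3.5.0, SAMtools 1.9, Bowtie2 2.2.9 and bcl2fastq 2.20 as tools and sacCer3 as build, and no settings are given in the sources used here. Each library took 5 µg of RNA and 20 PCR cycles, per the labels' protocols, and no molecular identifiers are mentioned. Tags can therefore include PCR copies. The intervals cover only the counting error of independent tags and are too narrow where tags are copies. For every peak the authors deposited a fold, the ratio of summit tags to local background, with the −log10 of its p-value and of its q-value. These values are the authors' own, peak by peak. No source used here says how tags with several alignments were treated, which bears on any sequence present at a locus and on the vector.

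Read totals are unknown. Summit tags were solved from fold and p under the Poisson model of the peak caller, and were whole numbers within 0.1 tags for 97.6% to 99.5% of peaks per list. The background of a list was 40.9 to 52.7 tags on the forward and 66.9 to 94.8 on the reverse strand. Levels are summit tags over that background. The lowest deposited −log10 q was 1.30, so an unlisted peak is not a count of 0, and the lists held 2995 to 3367 native peaks per library.

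Members and lists were chosen with earlier results of these data known. Genes came from RefSeq's annotation of R64. Python 3.11.15, SciPy 1.17.1 and, for limma 3.58.1 with a mean-variance trend, R 4.3.3 were used, and the functions were tested on simulated data. Genes named are the members and their neighbours, list genes in at least 3 libraries of one context and at most 1 of the other, the up to 3 strongest list genes in all 8 libraries, and genes with the presence pattern of LEU2 or HIS3. ILV3, MET28, CYS4 and MET6 were named after their values were seen. Alternatives covered a −log10 q of at least 10, the window, the reference, the scaling, the twin tolerance and each library left out. Replicate numbers did not pair libraries: deviations correlated between -0.06 and 0.004 over 1239 genes in 6 pairs of groups.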

Additional observations from a re-analysis of the deposited data

Results flagged for a closer look

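HIS3 in synHPRT1 integrated replicate 1 had a level of 239.7 under both references, with 5 other libraries between 5.07 and 20.0. The value was picked out because its gap to the next library was a larger part of the whole range than chance allows in 1 of 20 groups. In all, 12 sets of values were examined in this way, and chance picks out about 1 in 20 separate sets. Several of the 12 shared libraries and values, and the HIS3 value was picked out under each reference, so they were not separate. In the same library DED1 had a level of 9.55 and MRM1 of 2.65. The part of the strain, the clone or the library in it was not tested.

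A vector peak with a level of 1.86 was listed in synHPRT1 integrated replicate 2, although the integrated strains are not labelled as carrying the vector. It was picked out as a signal outside the main measurement. The other 3 integrated libraries listed none.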

How the results depend on the processing

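The LEU2 ratio between references kept its direction under all settings run (1.299 to 1.353 with a library left out, 0.83 with the deposited fold). The difference between sequences at LEU2 ranged from -0.74 to 0.095 (without synHPRT1R YAC replicate 2) with a library left out and so changed sign. With the replicate number as a block, which pairs libraries by number only, the LEU2 difference stayed at -0.32 (exact sign-flip test over 2 pairs, p = 1). With 2 pairs this sign-flip test cannot reach 0.05. Under the same block the count of genes with a different level went from 38 to 33, and the 5 named calls stayed under 0.05. Leaving out libraries gave 16 to 34 such genes, and 9 to 18 genes in place of 6 with a start peak in YAC libraries alone. Vector peaks with a twin at a marker locus numbered 3 within 0 bp, 14 within 10 bp, 7 with 0 bp and 14 with 250 bp on each side, and 14 to 21 with a library left out. Native peaks with a twin were 19.1% within 0 bp, 54.4% within 10 bp and 96.9% within 50 bp. Fewer libraries make the start-peak pattern easier to meet, so that count can only rise when one is left out. A narrower window, a tighter match or a library left out can only lower the number of vector peaks with a twin. The share of native peaks with a twin can likewise only fall with a tighter match. The cause of the other changes was not tested. Of list genes with no call, FUR1 turned to 0.066 over the median of these genes, and with a library left out FUR1 ranged from -0.15 to 0.078, URH1 from -0.47 to 0.249 and LYP1 from -0.34 to 0.671. A peak within 500 bp on the gene's strand, in place of a start peak, was listed for HIS3, where it can be DED1's, in 4 integrated libraries and for URA3, where it is TIM9's, in 3 YAC and 4 integrated libraries. By start peak, log2 ratios between references of at least 1 occurred for 2 genes other than LEU2 in synHPRT1R YAC replicate 1. Ratios of -1 or less occurred for 1 gene there (-2.33) and for 1 in synHPRT1 YAC replicate 1 (-2.50). No cluster outside LEU2 changed as much. Unknown depth, unlisted weak peaks and 2 libraries per group limit all comparisons.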

Other observations

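Of the 38 genes that differed between contexts in the comparison of levels, 3 are given here that were picked after their values were seen. ARG4, argininosuccinate lyase, had levels of 44.7 to 81.2 in YAC and 7.02 to 11.2 in integrated libraries, a difference of 2.77 on the log2 scale (limma adjusted p = 0.000107). CHA1, the catabolic serine and threonine deaminase, was lower in YAC libraries, at 2.77 to 12.8 against 38.3 to 58.1, a difference of -3.16 (limma adjusted p = 0.000499). HSP12, a membrane-protecting stress protein, had levels of 642 to 879 in YAC and 195 to 253 in integrated libraries (limma adjusted p = 3.57e-06).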
